A study of Mus musculus with 6 samples.

Results

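The p200 genes, also called the Ifi200 or HIN-200 family, and Aim2 form 1 cluster on mouse chromosome 1 (chr1:173349547-174031755, GRCm38/mm10). The 10 genes described here are Aim2, Ifi203, Ifi204, Ifi205, Ifi206, Ifi207, Ifi208, Ifi209, Ifi213 and Mndal, out of 27179 genes in the deposited table. They were chosen by family membership from NCBI gene IDs, with the values of these libraries already known, so their values are a description and carry no test. All 10 were in the table. The ID behind Ifi206 (240921) is an older one, matched through the name EG240921 that RefSeq lists for that gene.

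The RNA came from LT-HSC, the long-term haematopoietic stem cells of bone marrow that sustain blood formation, sorted as Lin-Sca-1+c-Kit+CD48-CD150+ from adult C57BL/6 mice of 8 to 12 weeks. Controls (Prdm16cko/cko; Mx1-Cre+/+, which lack the transgene) and knockouts (Prdm16cko/cko; Mx1-Cretg/+) both carried the conditional Prdm16 alleles and both received 5 injections of pIpC, a synthetic double-stranded RNA that induces interferon and through it the Mx1 promoter. The groups therefore also differ by the Cre transgene itself, and Mx1-Cre is not restricted to blood cells. Marrow of 5 mice per genotype was pooled 5 weeks after pIpC and sorted as 3 technical replicates, so the spread between libraries is that of portions of 1 pool and not of mice.

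Proteins of this family pair an N-terminal pyrin domain, which binds other pyrin domains, with a C-terminal HIN domain, which binds DNA. AIM2 senses double-stranded DNA in the cytosol and recruits the adaptor ASC (encoded by Pycard) to activate caspase-1. The p200 genes were first described as genes induced by interferon, and several of their proteins act in the nucleus on transcription and growth. The copies arose by duplication within the cluster and differ between mouse strains.

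The libraries held 36747729 to 43743795 reads. Prdm16 had 1630, 1860 and 1381 reads in control and 323, 388 and 643 in knockout libraries (log2 difference -1.93, SE 0.27, limma adjusted p = 0.00829). That call was lost without the filter on low values (0.0599), without the mean-variance trend (0.0967) and without knockout replicate 2 (0.065). All 10 LT-HSC markers on a list, Kit, Ly6a (Sca-1) and Slamf1 (CD150) among them, were detected in both groups, with summed levels of 2513 to 2690 reads per 1000000 reads (CPM) in control and 2497 to 2765 CPM in knockout. The summed level of several lists of mature cell markers differed between the groups, and single markers are counted below where every knockout library was above every control library, as in 8.52% of all tested genes. The summed level of 10 neutrophil markers was 101 to 107 CPM in control and 872 to 1085 CPM in knockout, and 9 of the 10 were above control, Cxcr2 overlapping. The 12 monocyte and macrophage markers summed to 586 to 604 CPM against 815 to 924 CPM, 10 of 12 being above control and Cd68 and Cd14 overlapping, with Adgre1 (F4/80) at 0 reads in each control library. The 10 eosinophil and basophil markers summed to 13.8 to 20.5 CPM against 586 to 681 CPM, 6 of 10 above, with Epx, Mcpt8, Prss34 and Ms4a2 at 0 reads in control. The 10 B and plasma cell markers summed to 60.1 to 67.7 CPM against 236 to 251 CPM, 7 of 10 above and Cd79b below control, with Ms4a1, Pax5, Igkc and Ebf1 among those at 0 in control. The 10 T and NK cell markers summed to 90.4 to 119 CPM against 108 to 125 CPM and overlapped. Of the 10, 1 was above control, Gzma, at 0 reads in control and 112, 59 and 28 in knockout. Lck was below control in every knockout library, and Cd3e and Ncr1 were at 0 in all 6 libraries. The 7 erythroid markers summed to 57.4 to 79.5 CPM against 95.6 to 102 CPM, 5 of 7 above, with Klf1 and Car1 overlapping. The 6 megakaryocyte markers summed to 886 to 964 CPM against 1241 to 1383 CPM, 3 of 6 above, with Itga2b, Ppbp and Gp9 overlapping. The part of these cells in the differences below was not tested, and in bulk RNA more cells of a type and more RNA per cell cannot be told apart.

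The promoters are shown first because the p200 genes are known as interferon-induced genes. Of the 10 genes, 9 had a promoter in the RefSeq table of GRCm38.p6. The interferon-stimulated response element was searched as GAAA, any 2 bases and GAAA again, on both strands in the 250 bases before each start. It was found before at least 1 start of 7 of the 9 genes, namely Ifi203, Ifi205, Ifi206, Ifi207, Ifi208, Ifi213 and Mndal. By promoter it was in 8 of the 11 promoters of these 9 genes and in 2.98% of all 32851 promoters. Counts of family genes below are by gene, and shares of all promoters are by promoter. A STAT site, searched as TTCNNNGAA, which reads the same on both strands and can share its last letters with the first motif, was found in 0 of the 9 genes and in 7.02% of all promoters. In 6 of the 7 genes the element was spelled GAAATCGAAA, a form held by 13 of all promoters (0.0396%). This spelling was picked out after the sequences were read, as the commonest one in these same promoters. The 13 include promoters of the 6 genes and of Ifi214, another gene of the cluster, so 0.0396% is not an independent background. Allowing 1 mismatch, 8 of the 9 genes and 1.21% of all promoters matched.

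The element and 10 bases on each side are given on the strand of the gene, with the element in capitals, to show how closely the copies resemble each other.
Ifi203: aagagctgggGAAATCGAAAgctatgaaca
Mndal: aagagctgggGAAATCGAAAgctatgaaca
Ifi213: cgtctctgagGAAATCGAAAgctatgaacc
Ifi208: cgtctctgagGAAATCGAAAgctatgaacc
Ifi206: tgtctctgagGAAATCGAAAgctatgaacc
Ifi207: cctagccaggGAAATCGAAAattaagaaca
Ifi205: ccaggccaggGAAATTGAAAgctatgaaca
Ifi209: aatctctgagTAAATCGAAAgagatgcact
In GRCm38.p6 these stretches lie at chr1:173942508-173942537 for Ifi203, chr1:173880204-173880233 for Mndal, chr1:173599326-173599355 for Ifi213, chr1:173491339-173491368 for Ifi206, chr1:173741831-173741860 for Ifi207 and chr1:174031870-174031899 for Ifi205, all on the minus strand. Those of Ifi208 (chr1:173673597-173673626) and Ifi209 (chr1:173630770-173630799) are on the plus strand. The stretches of Ifi203 and Mndal shown are identical, as are those of Ifi213 and Ifi208. Counted from 1 at the 5′ end of GAAATCGAAA, Ifi205 carries C6T, which leaves both copies of GAAA whole, and Ifi209 carries G1T, which does not. The best stretch in the only Aim2 promoter listed (chr1:173420354-173420603) differed from GAAATCGAAA at 3 positions. The Aim2 locus begins further upstream, at 173349547, and no promoter at that end was listed or searched. The element began 35 and 36 bases before the start in Ifi203 and Mndal, 40 and 41 in Ifi206 and Ifi207, 58 in Ifi208, 73 in Ifi213 and 134 in Ifi205, and the near match of Ifi209 began 79 bases before its start. For Ifi203 and Mndal, which have more than 1 start in the table, the start with the closest match is used. A match describes letters in this window and is not evidence that a factor binds there.

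**Figure D1:**
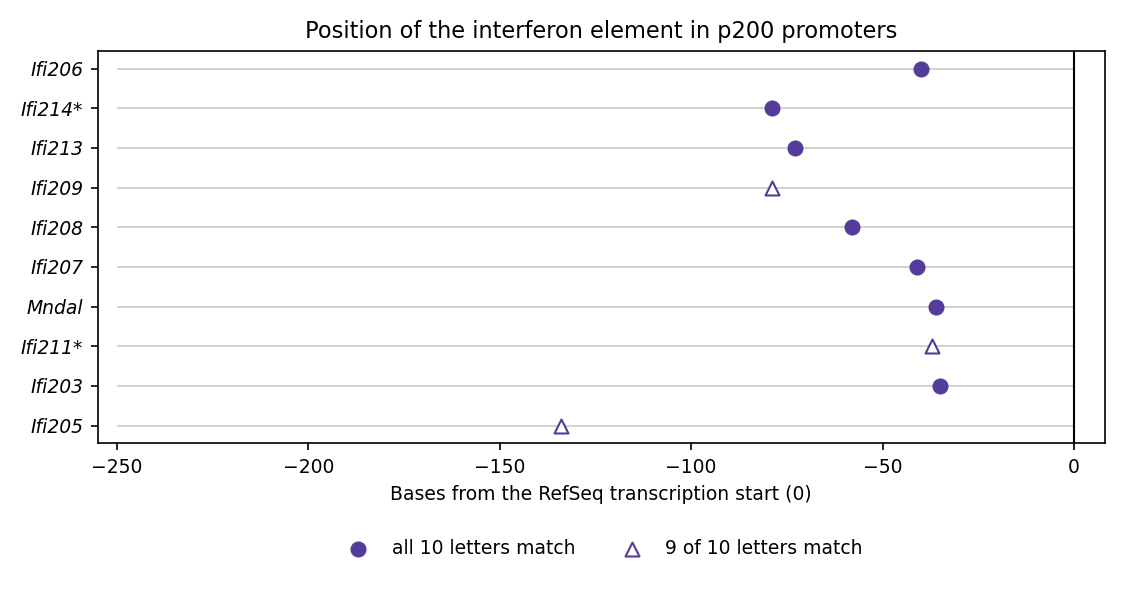
Position of the GAAATCGAAA element in the 250 bases before the RefSeq start of each p200 gene, with the start at 0. Filled circles are matches of all 10 letters and open triangles are matches of 9 letters; asterisks mark relatives outside the list of 10. Ifi205 has its element 134 bases before the start, and the others lie between 35 and 79 bases before it.

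The proximal promoters of Ifi203, a highly expressed gene whose levels overlapped between the groups, and of Ifi209, the gene with the widest gap between groups, are given as 140 bases up to the start, with the element or its near match in capitals. The Ifi203 stretch is chr1:173942493-173942632 on the minus strand and the Ifi209 stretch is chr1:173630719-173630858 on the plus strand (GRCm38.p6).
Ifi203: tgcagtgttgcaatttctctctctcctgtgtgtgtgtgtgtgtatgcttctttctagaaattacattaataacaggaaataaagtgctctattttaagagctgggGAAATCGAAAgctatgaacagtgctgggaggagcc
Ifi209: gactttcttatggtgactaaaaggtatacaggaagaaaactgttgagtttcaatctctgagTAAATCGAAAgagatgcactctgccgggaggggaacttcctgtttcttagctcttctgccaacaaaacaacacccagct

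In the transcripts of LT-HSC the cluster was divided into 3 genes at high level and 7 at low level. Ifi203, Mndal and Aim2 together made up 98.4% to 99.0% of the summed CPM of the 10 genes in control libraries and 91.7% to 97.2% in knockout libraries. The summed level of the 10 genes was 284 to 307 CPM in control and 280 to 322 CPM in knockout, so the groups overlapped. The other 7 genes together summed to 4.58, 2.77 and 3.00 CPM in control replicates 1, 2 and 3 and to 23.2, 8.90 and 15.2 CPM in knockout replicates 1, 2 and 3.

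Levels of different genes were compared as CPM per kb of the longest transcript of the gene in the GENCODE M21 annotation. In control Mndal was highest, at 63.4 ± 7.96 CPM per kb (SD, n = 3), before Ifi203 at 36.3 ± 3.79 and Aim2 at 8.81 ± 1.65 CPM per kb. Per kb, the libraries of these 3 genes did not overlap with each other or with Ifi213, the next in order at 0.689 ± 0.265 CPM per kb. In CPM without the length, Ifi203 (136.2 ± 14.2) and Mndal (128.5 ± 16.1) overlapped in control. The order of these 2 genes therefore rests on the transcript lengths used, 3.754 kb for Ifi203 and 2.026 kb for Mndal. From Ifi213 downwards each gene overlapped with its neighbour in the order Ifi213, Ifi206, Ifi204, Ifi209 and Ifi205, and Ifi208 and Ifi207 were at 0. In knockout the first 3 places were the same, at 63.1 ± 11.9, 36.6 ± 1.66 and 8.78 ± 1.48 CPM per kb. Ifi204 (2.02 ± 2.22), Ifi209 (1.47 ± 0.404), Ifi206 (0.983 ± 0.284) and Ifi213 (0.629 ± 0.730 CPM per kb) followed, each overlapping with the next.

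**Figure D2:**
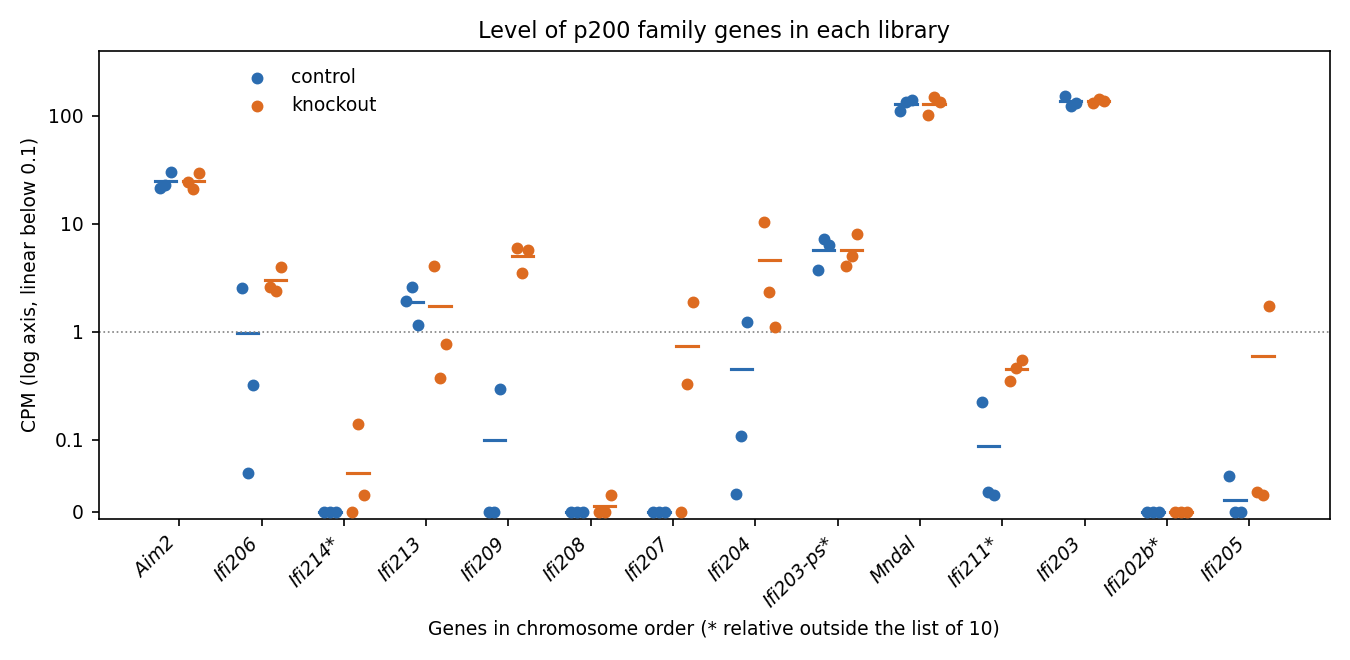
CPM of each gene in every library, in chromosome order, on an axis that is logarithmic above 0.1 and linear below it; blue points are the 3 control and orange points the 3 knockout libraries, short lines are means, and the dotted line marks 1 CPM. Aim2, Mndal and Ifi203 lie at the top with both groups mixed, and among the 10 genes Ifi209 alone has every knockout library above every control library.

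The groups were compared with limma over the 13018 genes that reached 1 CPM in 3 or more libraries. At an adjusted p below 0.05, 0.699% of these genes were called, 0.407% as higher and 0.292% as lower in knockout. Of the 10 family genes, 7 were tested and 0 were called. At an unadjusted p below 0.05 there were 3 of 7, all of them higher in knockout, beside 10.3% of all tested genes in either direction and 5.58% higher. The voom method of limma on recovered reads called 0 of 7 at an adjusted p below 0.05, beside 0.868% of all tested genes. Only Aim2, Ifi203 and Mndal had at least 1 CPM in all 6 libraries, and Ifi209 entered the test through its knockout libraries alone. Ifi204 and Ifi206 reached 1 CPM in 1 control library each and passed the filter because all 3 knockout libraries reached it, so the 3 genes at an unadjusted p below 0.05 are those that the filter kept for their knockout level. The median log2 difference of the 7 was 0.02, beside 0.0027 over all tested genes. Since the list was drawn up with this contrast known, these counts are not evidence for or against a change of the family.

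Ifi203, which encodes a p200 protein with a pyrin and a HIN domain, had 6143, 4583 and 5773 reads in control and 4858, 6175 and 5988 in knockout. In CPM the knockout libraries, at 131.4 to 143.8, all lay within the range of the control libraries, at 124.3 to 152.0. The means were 136.2 ± 14.2 CPM (control) and 137.4 ± 6.21 CPM (knockout), a log2 difference of 0.02 (SE 0.11, 95% interval -0.22 to 0.26).

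Mndal, named after the human myeloid nuclear differentiation antigen, had 4460, 4938 and 6159 reads in control and 3749, 6372 and 5845 in knockout. The lowest and the highest library by reads were both knockout libraries. Its log2 difference was -0.02 (SE 0.15, 95% interval -0.36 to 0.33). Mndal and Ifi203 lie near each other (chr1:173857215-173880382 and chr1:173920400-173942866) with Ifi211 between them.

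Aim2, the cytosolic DNA sensor, had 873, 851 and 1324 reads in control and 898, 904 and 1284 in knockout. Replicate 3 was the highest library of either group, and the groups overlapped. The means were 25.0 ± 4.69 CPM (control) and 24.9 ± 4.20 CPM (knockout) (log2 difference -0.0034, SE 0.22, 95% interval -0.48 to 0.48). For these 3 genes the intervals leave room for differences up to those bounds in either direction. The Aim2 locus (chr1:173349547-173466040) overlaps that of Cadm3, a cell adhesion gene with 0, 125 and 16 reads in control and 0, 14 and 0 in knockout, and whether the counting used strand is not stated.

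The 3 genes did not rise and fall together over the 6 libraries. Pearson's r of log2 values, given as a description over libraries that share pools and depth, was -0.12 for Ifi203 with Mndal, -0.39 for Aim2 with Ifi203 and 0.21 for Aim2 with Mndal. The 5 tested genes outside the cluster most like Mndal over the 6 libraries were Slc5a2, Wasl, Gm14230, Zfp882 and Hmgn2, with r of 0.970 to 0.985 among 13010 genes compared. They were picked as the highest of many values over only 6 libraries, and a link to Mndal was not tested. Slc5a2 was also low, at 1.10 CPM in control and 1.03 CPM in knockout.

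Ifi209, also known as Pyhin1, had 0, 0 and 13 reads in control and 222, 149 and 250 in knockout (chr1:173630859-173647928). Every knockout library was above every control library, which held for 1 of the 10 family genes and, with the knockout above, for 8.52% of tested genes. Knockout libraries all below control libraries were seen in 0 of the 10 and in 8.01% of tested genes. Its control level was 0.0994 ± 0.172 CPM and its knockout level 5.07 ± 1.39 CPM (SD, n = 3). The ratio of summed reads, corrected for library size, was 46.7 (95% interval 27.1 to 88.3 for counting error alone). Its fitted log2 difference was 7.05 (SE 1.66, 95% interval 3.35 to 10.7, unadjusted). That value rests on the offset of 0.5 read in libraries at 0, and on log2(CPM + 1) it was 2.45. All 13 control reads came from control replicate 3. Of its 50-base stretches, 35.1% also occur in another gene, 34.7% in Ifi214, which had 0, 0 and 0 reads in control and 0, 6 and 1 in knockout. The macrophage marker Adgre1, named here after its values were seen, was at 0 in control and had 198, 188 and 274 reads in the same 3 knockout libraries. Its part in the Ifi209 difference was not tested.

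Ifi204 encodes p204, a mouse p200 protein linked to DNA sensing through STING and to binding of the retinoblastoma protein. It had 1, 4 and 54 reads in control and 387, 100 and 48 in knockout. Control replicate 3 and knockout replicate 3 overlapped, at 1.24 and 1.10 CPM, and knockout replicate 1 stood highest at 10.5 CPM. The log2 difference was 4.08 (SE 1.49, 95% interval 0.75 to 7.41, unadjusted). It ran from 2.95 without control replicate 1 to 5.48 without control replicate 3, with 1.66 on log2(CPM + 1). The ratio of summed reads was 8.87 (95% interval 6.77 to 11.8 for counting error alone), and the fitted value rests on control libraries of 1 and 4 reads. Of its 50-base stretches 30.2% occur in another gene, 23.2% in Ifi211.

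Ifi206 had 104, 2 and 14 reads in control and 97, 102 and 174 in knockout. Control replicate 1 reached the level of the lower knockout libraries, at 2.57 CPM against 2.38 to 3.98 CPM, while the other control libraries were at 0.0543 and 0.321 CPM. The log2 difference was 2.92 (SE 1.26, 95% interval 0.11 to 5.73, unadjusted). It ran from 1.66 without control replicate 2 to 4.29 without control replicate 1, with 1.21 on log2(CPM + 1). The ratio of summed reads was 3.04 (95% interval 2.47 to 3.77 for counting error alone, which leaves out the wide spread between the control libraries). Ifi213, listed by RefSeq under the older name Pydc4, had 78, 96 and 50 reads in control and 149, 16 and 34 in knockout. Its knockout libraries lay on both sides of the control libraries, with a log2 difference of -0.75 (SE 0.97, 95% interval -2.91 to 1.40, unadjusted). The difference was -1.71 without knockout replicate 1 and -0.01 without knockout replicate 2.

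Ifi205, Ifi207 and Ifi208 did not reach the level needed for the test. Ifi207 had 0 reads in every control library and 0, 14 and 82 reads in knockout. A single control library at 0 allows up to 3 reads, on average 0.0748 CPM, and the 3 control libraries together allow less. Ifi205, which encodes p205, had 2, 0 and 0 reads in control and 1, 1 and 76 in knockout. Both genes were thus highest in knockout replicate 3 and at or near 0 in at least 1 other knockout library. Monocyte and macrophage genes chosen after their values were seen were also highest in that library, Csf1r with 199, 321 and 998 reads and Cx3cr1 with 9, 116 and 303 reads in knockout replicates 1, 2 and 3, and their part was not tested. Of the 50-base stretches of Ifi205, 49.6% occur in another gene, 49.5% in Ifi211. Ifi208, listed under the older name Pydc3, had 1 read in knockout replicate 3 and 0 in the other 5 libraries.

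**Figure D3:**
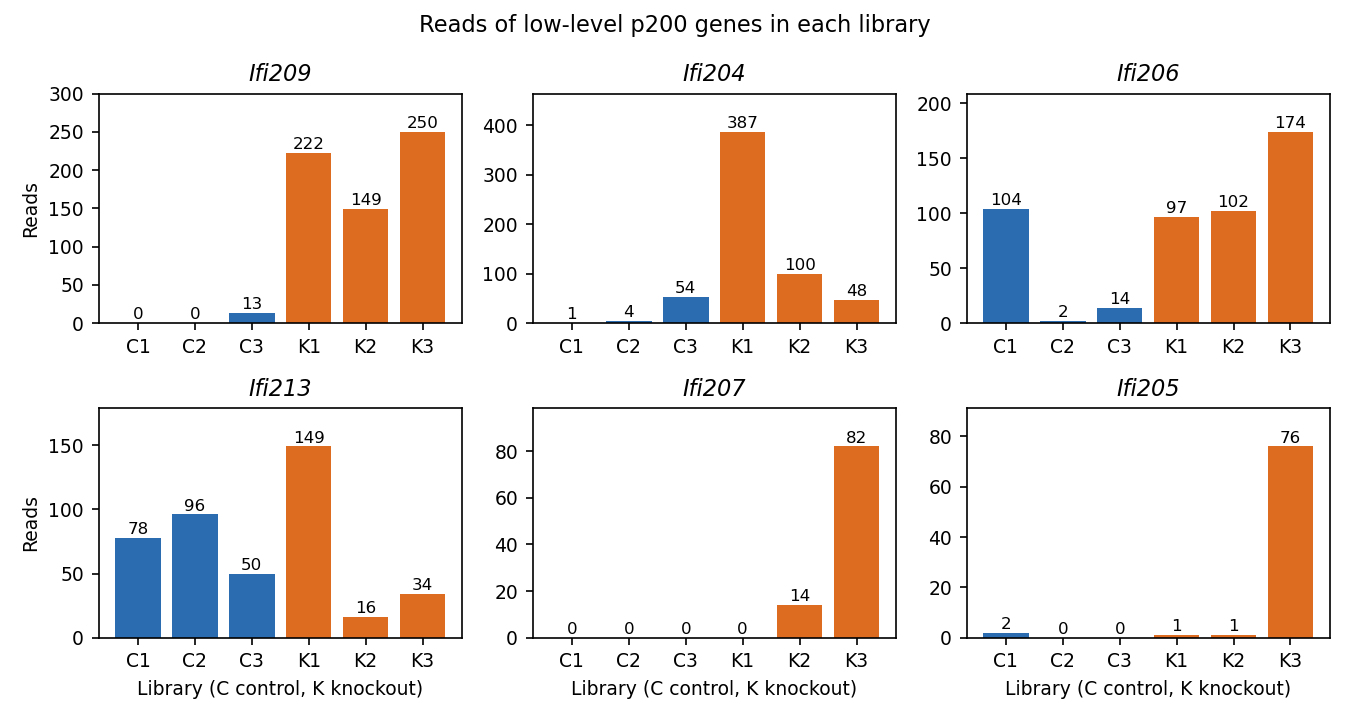
Reads of 6 low-level p200 genes in each library, with C1 to C3 the control and K1 to K3 the knockout replicates; the vertical axes start at 0 and differ between panels. Ifi209 is at 149 to 250 reads in all 3 knockout libraries, whereas the Ifi204 and Ifi205 signals come mostly from 1 knockout library each.

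Relatives of the 10 genes within the cluster gave the following. Ifi203-ps, annotated as a pseudogene of Ifi203, had 151, 266 and 276 reads in control and 151, 216 and 351 in knockout, with overlapping groups and a log2 difference of -0.02 (SE 0.43). Of its 50-base stretches 24.3% occur in Ifi203, so reads could be split between the copies. Ifi211 had 9, 1 and 1 reads in control and 13, 20 and 24 in knockout, the groups being apart, but 72.9% of its 50-base stretches occur in another gene, and it was not tested. Ifi202b, whose protein has HIN domains and no pyrin domain, had 0 reads in all 6 libraries. Among the other genes of the list the share of 50-base stretches found in another gene was 10.9% for Ifi203, 27.2% for Mndal, 24.5% for Ifi206, 27.9% for Ifi213, 26% for Ifi208, 7.17% for Ifi207 and 0.932% for Aim2. The handling of reads that map to several copies is not given in the sources used here. For that reason, values of the copies with high shares are uncertain.

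Genes next to the cluster were low in both groups, except Dusp23, a phosphatase gene at 25.7 ± 3.23 CPM in control and 22.6 ± 1.69 CPM in knockout. Of the 6 nearest tested genes, Dusp23, Fcer1a and Ackr1 before Aim2 and Olfr248, Olfr414 and Fmn2 after Ifi205, 0 were called (limma, adjusted p from 0.469 to 0.962). Fcer1a, the alpha chain of the IgE receptor and a mast cell and basophil gene, had 24, 225 and 74 reads in control and 177, 275 and 330 in knockout, and the groups overlapped.

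The partners of AIM2 were described from a list of 19 inflammasome genes, of which 16 were tested and 0 were called (limma, adjusted p below 0.05), beside 0.699% of all tested genes. Of the 16, 7 had a value above 0, and the median was -0.03. Every knockout library was above every control library in 3 of the 19, and below in 3, beside 8.52% and 8.01% of tested genes. Pycard, the ASC adaptor, had every knockout library below every control library, at 104.2 ± 8.06 against 121.7 ± 10.96 CPM (log2 difference -0.22, SE 0.12, adjusted p = 0.548). Casp1, the protease activated by inflammasomes, was at 95.5 ± 11.9 and 88.5 ± 8.68 CPM (adjusted p = 0.834), and Gsdmd, which forms the membrane pore downstream, at 99.5 ± 3.09 and 106.5 ± 16.4 CPM (adjusted p = 0.864). These 3 were chosen for their role after the values were seen. By the smallest p the list was led by Ninj1, which encodes a protein of plasma membrane rupture. Ninj1 had 9464, 8849 and 10935 reads in control and 6654, 8144 and 7844 in knockout, without overlap. Its log2 difference of -0.40 (SE 0.08) missed the threshold (adjusted p = 0.0659), and passed it with a filter of 5 CPM (0.0406), with log2(CPM + 1) (0.0398) and with voom (0.0456). Nlrp6, a sensor gene, was at 0.260 ± 0.450 and 2.58 ± 0.856 CPM (adjusted p = 0.341), and Il1b, the cytokine gene, at 1.16 ± 0.259 and 3.60 ± 0.983 CPM (adjusted p = 0.384).

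Of 16 genes of DNA sensing, all were tested and 0 were called by limma, beside 0.699% of all tested genes, with a median log2 difference of 0.04. Every knockout library was above every control library in 2 of the 16, and below in 1, beside 8.52% and 8.01% of tested genes. Sting1, the adaptor downstream of cGAS to which p204 has been linked, had 5393, 4271 and 4991 reads in control and 3125, 4185 and 4354 in knockout. In CPM every knockout library was below every control library, at 93.9 ± 8.17 against 121.2 ± 10.6 CPM, and the difference of -0.37 (SE 0.12) did not pass the test (adjusted p = 0.294). Tbk1, the kinase downstream of STING, was at 99.2 ± 1.40 and 114.8 ± 4.81 CPM (adjusted p = 0.507) and Dnase2a, a lysosomal DNase, had overlapping groups with a difference of -0.58 (SE 0.32, adjusted p = 0.567). Cgas itself, named for its role, was at 46.2 ± 4.99 and 51.6 ± 9.95 CPM (adjusted p = 0.830).

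A list of 22 interferon response genes was set beside the family because the p200 genes are counted among such genes. Of the 22, 2 were called higher and 0 lower, beside 0.407% and 0.292% of all tested genes. A value above 0 was found for 19 of the 22 and for 6580 of all 13018 tested genes, and the median log2 difference was 0.43 beside 0.0027. In 14 of 22 every knockout library was above every control library, beside 8.52% of tested genes. In 1 of 22, Irf1, a transcription factor gene, every knockout library was below, at 182.1 ± 15.1 against 223.8 ± 5.32 CPM, beside 8.01% of tested genes. Irf7, the transcription factor that amplifies interferon production, had 1554, 1391 and 1714 reads in control and 2474, 2695 and 2788 in knockout and rose by 0.74 on the log2 scale (SE 0.13, limma adjusted p = 0.0368). Ifi27l2a had 55, 54 and 222 reads in control and 532, 638 and 794 in knockout and rose by 2.85 (SE 0.51, adjusted p = 0.0393). The Irf7 call was lost in 9 of 13 alternatives (adjusted p from 0.024 to 0.17), including each that left out 1 library, and the Ifi27l2a call in 8 of 13 (0.00519 to 0.224). Ifit3 had 105, 179 and 117 reads in control and 432, 439 and 484 in knockout, a difference of 1.76 (SE 0.38) that missed the threshold (adjusted p = 0.0869) and passed it in 1 of 13 alternatives (0.0457). Promoters of 16 of these genes were in the RefSeq table, and 7 of the 16 held the spaced GAAA repeat in the same window. Whether the list and the p200 genes differ from each other was not tested. The summed neutrophil, monocyte and macrophage, eosinophil and basophil, and B and plasma cell markers given above were higher in the same 3 knockout libraries, and their part was not tested.

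**Figure D4:**
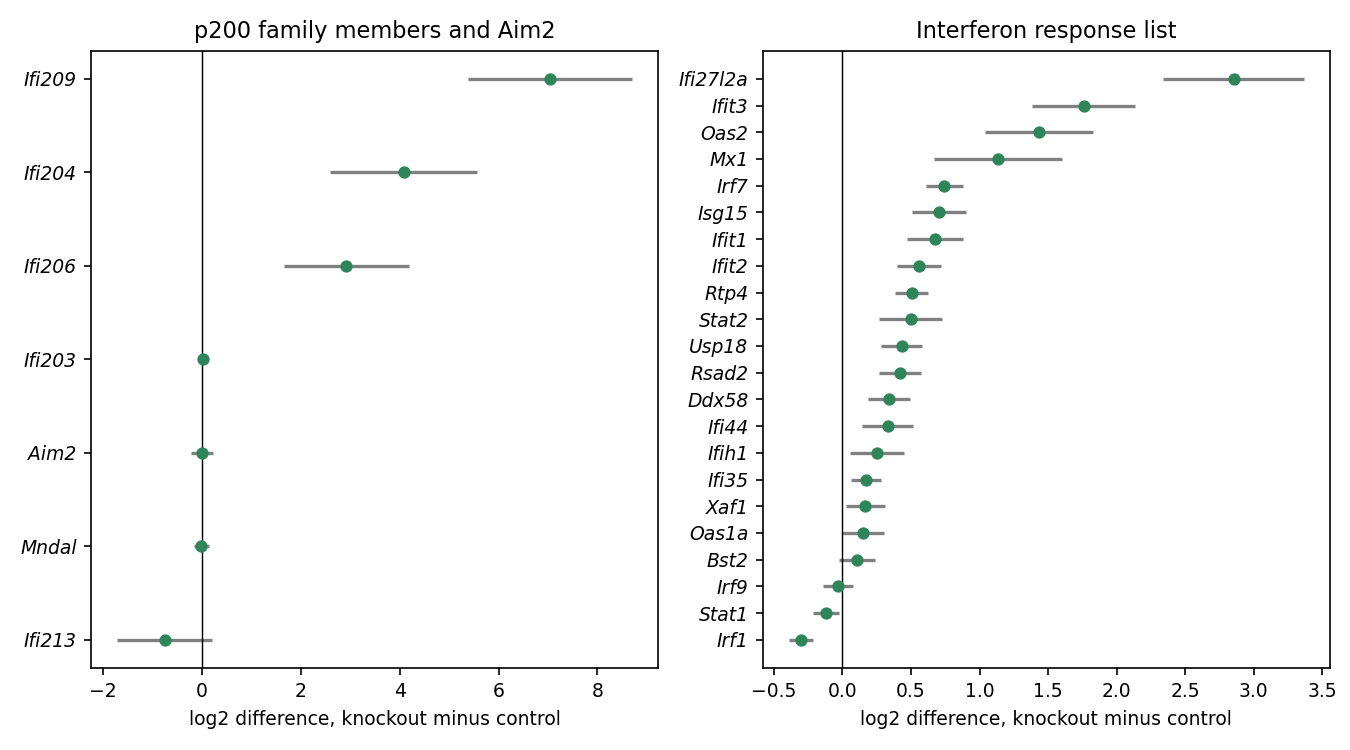
Log2 difference, knockout minus control, of the 7 tested p200 family genes (left) and of the 22 interferon response genes (right), with bars of 1 standard error from limma; the horizontal axes differ. Ifi203, Aim2 and Mndal lie at 0 with short bars, Ifi209, Ifi204 and Ifi206 lie at 7.05, 4.08 and 2.92 with long bars, and 19 of the 22 interferon response genes lie above 0.

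Proteins of the p200 family have been reported to bind regulators of growth and transcription, among them the retinoblastoma family, E2F factors, Id proteins, UBF and AP-1. Of 15 such genes tested, 2 were called lower and 0 higher, beside 0.292% and 0.407% of all tested genes. A value above 0 was found for 8 of the 15, and the median was 0.02. The 2 were Fos, from 757 ± 79.0 to 348 ± 18.5 CPM, and Jun, from 896 ± 67.6 to 464 ± 24.9 CPM, which form AP-1 (log2 differences of -1.12, SE 0.08, and -0.95, SE 0.07, both with limma adjusted p = 0.00017). Id3, an inhibitor of helix-loop-helix factors, had 0, 14 and 24 reads in control and 183, 177 and 241 in knockout, and its difference of 5.11 (SE 1.45), which rests in part on a library at 0, missed the threshold (adjusted p = 0.232), passing in 1 of 12 alternatives (0.0123). Rb1, Ubtf and Id2 were not called, and like Id3 had every knockout library above every control library. That held for 4 of the 15, beside 8.52% of tested genes. The reverse held for 2 of the 15, Fos and Jun, beside 8.01%. Rb1, the retinoblastoma gene, was at 30.1 ± 13.6 and 50.5 ± 6.17 CPM, Ubtf, which encodes UBF, at 209.6 ± 12.3 and 255.6 ± 28.9 CPM, and Id2 at 11.9 ± 4.46 and 18.8 ± 3.75 CPM. Rbl1, Rbl2, E2f1, E2f4 and Trp53 were not called and had overlapping groups.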

How the data were processed

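RNA-seq of 6 LT-HSC libraries, 3 per group, was analysed. Log2 values for 27179 NCBI gene IDs were deposited by the authors as 1 table. The tools named, per the submitters' processing notes, are HISAT2, featureCounts, limma and FastQC, with the build mm10. For versions, strand, annotation and reads mapped to several places, the settings used were not given in these sources. The numbers deposited behave as log2 CPM after 0.5 read is added to each count. Undoing this gave whole reads for 100.0% of values within 0.01 of a whole number, and CPM in the text are these recovered reads over the effective library size. Floors (3 reads) and intervals of read ratios cover counting error only, and intervals of log2 differences come from the spread between libraries.

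RefSeq (GRCm38.p6) matched 25275 IDs directly and 32 through an older ID. Of the names fixed as p200 relatives, 4 are symbols in the table, and most others are older names of genes described. Transcript lengths and shared 50-base stretches came from GENCODE M21, in place of a protein table, which was not used here. Groups were compared on the log2 scale with limma 3.58.1 (R 4.3.3) (mean-variance trend, no block) with Benjamini-Hochberg adjustment over 13018 genes. Alternatives were no filter, a filter of 5 CPM, quantile normalization, log2(CPM + 1), no trend, voom, the replicate number as a block, and omission of each library in turn. The voom fit called 113 genes. A negative binomial test on the reads was planned and not run, because the deposited unit is log2, and voom stands in its place. Library pairs within a group differed by more than sampling noise (chi-square per degree of freedom 42.4 to 59.1).

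Members and lists were chosen with earlier results of these data known. Named genes were all members, relatives with reads, neighbours, list members called or with the 3 smallest p, and Prdm16. Ifi202b, the markers and the other list genes named were added after their values were seen. Figures were drawn with matplotlib 3.10.9.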

Additional observations from a re-analysis of the deposited data

How the results depend on the processing

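The count of family genes called was 0 in every alternative except log2(CPM + 1), which called 1, Ifi209. Over all genes 91 were called, and 33 without the filter and 164 with log2(CPM + 1), the range on leaving out 1 library being 41 to 92 (52, 41 and 43 without knockout replicates 1, 2 and 3). Over the 4 pathway lists 4 were called, and 2 without the filter, 7 with log2(CPM + 1), 2 without the trend and 2 with the replicate block, the range on leaving out 1 library being 2 to 3. The block called 67 genes in all and 0 family genes. Same-numbered libraries of the groups did not deviate together (correlations -0.021 to 0.020, against -0.012 to 0.023 for other pairs), so no pairing by number was seen. A pairing with a weak effect on the values could escape this comparison. The differences of Ifi204, Ifi206, Ifi209 and Ifi213 kept their sign in 12 of 12 alternatives, with Ifi209 from 2.45 with log2(CPM + 1) to 8.57 without control replicate 3, and Ifi204 from 1.66 to 5.48 in the same settings. Those of Ifi203, Mndal and Aim2 kept their sign in 10 of 13 each and lay between -0.13 and 0.14. The cause of these shifts was not tested. Depth limits the genes below 1 CPM, where a few reads decide a value.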
